A study of Mus musculus with 10 samples.

Results

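MHC class I antigen presentation was followed through 10 of its genes in the retina of wild-type mice and of mice labelled as lacking interleukin-6 (IL-6). The genes were taken by name, as the rows of the deposited count table for H2-K1, H2-D1, H2-T23, B2m, Tap1, Tap2, Tapbp, Psmb8, Psmb9 and Psmb10, and are 10 of the 36115 genes in that table. All 10 passed the filter on low counts that left 18965 genes to test. RNA sequencing reads per gene were compared between 5 wild-type libraries, W1 to W5, and 5 libraries of the genotype B6.129S2-Il6tm1Kopf/J, K1 to K5. All came from naive mice aged 3 months with a C57BL/6 background given for both groups. The mice had no further treatment, and RNA was taken with Trizol from flash-frozen retinas. The labels mention no sex, litter or batch, nor whether each library is a different mouse. All p-values therefore describe variation among these 10 libraries, part of which may be technical.

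MHC class I molecules carry short peptides from inside the cell to its surface, where CD8 T cells and natural killer cells read them. A polymorphic heavy chain pairs with the light chain beta-2 microglobulin. Peptides are cut by the proteasome, pumped into the endoplasmic reticulum by the TAP transporter and fitted into the heavy chain with the help of tapasin. Interferons raise many of these genes, and exchange the catalytic subunits of the proteasome for those of the immunoproteasome. Neurons are known for low class I levels, and the retina for its immune privilege.

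Total counts ran from 30433373 to 38857374 per library. Il6, the disrupted gene, had 0 to 1 counts in each wild-type library and 3 to 7 in each library labelled knockout, against the direction of the label. Gene-level counts do not separate the interrupted part of Il6 from the rest, so these reads check nothing, and directions are given for the libraries as labelled. W2 held the highest wild-type level of several marker lists, and results that rest on it are given with and without it.

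The promoters of H2-K1, H2-D1 and B2m shared a pair of short elements at the same spacing. They are printed because these genes code for the heavy and light chains of the same molecule, and because H2-K1 and B2m had the lowest adjusted p of the 10 by edgeR. The textbook X2 and Y elements of class I promoters were searched as TGACG followed after exactly 20 bases by ATTGG, on both strands. The Y element ATTGG is CCAAT read on the opposite strand, so each ATTGG is also a match to that box. The match was searched for after the sequences had been read. In the stretches that follow, capitals mark the elements, and the strand is that of the gene.
H2-K1: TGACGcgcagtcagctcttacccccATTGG
H2-D1: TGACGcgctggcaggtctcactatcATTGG
B2m: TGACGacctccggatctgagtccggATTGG
H2-M3: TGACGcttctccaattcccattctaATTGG
H2-T23: TGATGcagtctcaattctcatttctGTTGG

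The stretches lie at chr17:34000359-34000388 (minus strand), chr17:35262993-35263022 (plus), chr2:122147609-122147638 (plus), chr17:37270188-37270217 (plus) and chr17:36032773-36032802 (minus). Sequences and starts are those of RefSeq on GRCm38.p6, whose table held windows of 250 bases before to 50 bases after the start for 9 of the 10 genes, all but Tap2. The strict pair was found in 31 of 32851 windows (0.0944%), belonging to 27 genes, among them 3 of the 9 genes with a window and H2-M3, a class I heavy chain gene that is not one of the 10. H2-T23 matched only a relaxed form, TGANG and NTTGG at the same spacing, which 1.19% of windows held. Between the elements H2-K1 and H2-D1 were identical at 13 of 20 bases, and H2-K1 and B2m at 3 of 20. Of the 27 genes, 23 were tested, 13 had a positive log2 fold change and 0 were called by edgeR.

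A longer piece of the H2-K1 and B2m promoters, ending before the first annotated exon, also held matches to AANNGAAA, the core that interferon regulatory factors bind, and to the NF-kappa-B consensus. Capitals mark both, with the X2 and Y elements.
H2-K1: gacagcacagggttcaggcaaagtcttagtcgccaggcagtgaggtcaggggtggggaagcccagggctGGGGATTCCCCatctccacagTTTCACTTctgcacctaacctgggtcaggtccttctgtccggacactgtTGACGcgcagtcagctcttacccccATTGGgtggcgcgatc
B2m: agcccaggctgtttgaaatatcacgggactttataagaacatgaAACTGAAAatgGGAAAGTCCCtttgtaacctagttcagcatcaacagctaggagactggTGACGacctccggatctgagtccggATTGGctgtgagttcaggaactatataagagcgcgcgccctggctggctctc

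These pieces are chr17:34000348-34000527 (minus strand) and chr2:122147506-122147685 (plus). AANNGAAA, searched on both strands, was matched in the windows of H2-K1, H2-D1, H2-T23 and B2m and in 23.9% of all windows. The NF-kappa-B consensus was matched in those of H2-K1, H2-D1 and B2m and in 5.8% of all windows. The 5 other genes with a window, Tap1, Tapbp, Psmb8, Psmb9 and Psmb10, held neither sequence between 250 bases before and 50 bases after the start. A match describes these letters and is not shown here to be bound.

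None of the 10 genes was called different between the groups by edgeR's quasi-likelihood test at an adjusted p under 0.05, a rule that called 2.03% of all tested genes and 0.859% as higher in the libraries labelled knockout. All 10 had a positive log2 fold change, with a median of 0.32, against 50.4% positive and a median of 0.0018 over all tested genes. An unadjusted p under 0.05 was reached by 6 of the 10, all higher, where 6.78% of all genes reached it in that direction. DESeq2 called 2 of the 10, H2-K1 and B2m, both higher, against 3.16% of the genes it tested and 1.33% as higher. Limma-voom called 1, B2m, against 1.8% and 0.881%. In the authors' deposited table H2-K1 and B2m also had an adjusted p under 0.05, as did 1.49% of genes in that direction, and neither carried the deposited mark of significance. All 10 estimates were therefore positive, the lowest being 0.08 ± 0.11 (SE) for Psmb10. They come from the same libraries and are not independent of each other. How many of the 10 passed a test depended on the tool, the filter and the libraries kept.

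Levels are given as CPM, a read count scaled to library size with TMM factors, and as mean ± SD over 5 libraries. B2m encodes beta-2 microglobulin, the light chain that every classical class I molecule needs to reach the surface (ENSMUSG00000060802.8, chromosome 2, 122147686 to 122153083, GRCm38). It stood at 14.3, 28.7, 16.02, 13.1 and 19.0 CPM in W1 to W5, and at 24.9, 28.1, 33.4, 34.1 and 26.2 CPM in K1 to K5. W2 was the only wild-type library inside the range of the libraries labelled knockout. The means were 18.2 ± 6.25 and 29.4 ± 4.20 CPM (n = 5), a log2 fold change of 0.69 ± 0.18 (SE), at an edgeR adjusted p of 0.0578. DESeq2 gave an adjusted p of 0.00604 and limma-voom 0.0330, and without W2 edgeR gave a log2 fold change of 0.91 with an adjusted p of 0.000553. B2m had the largest log2 fold change of the 10 in the fit to all libraries.

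**Figure D1:**
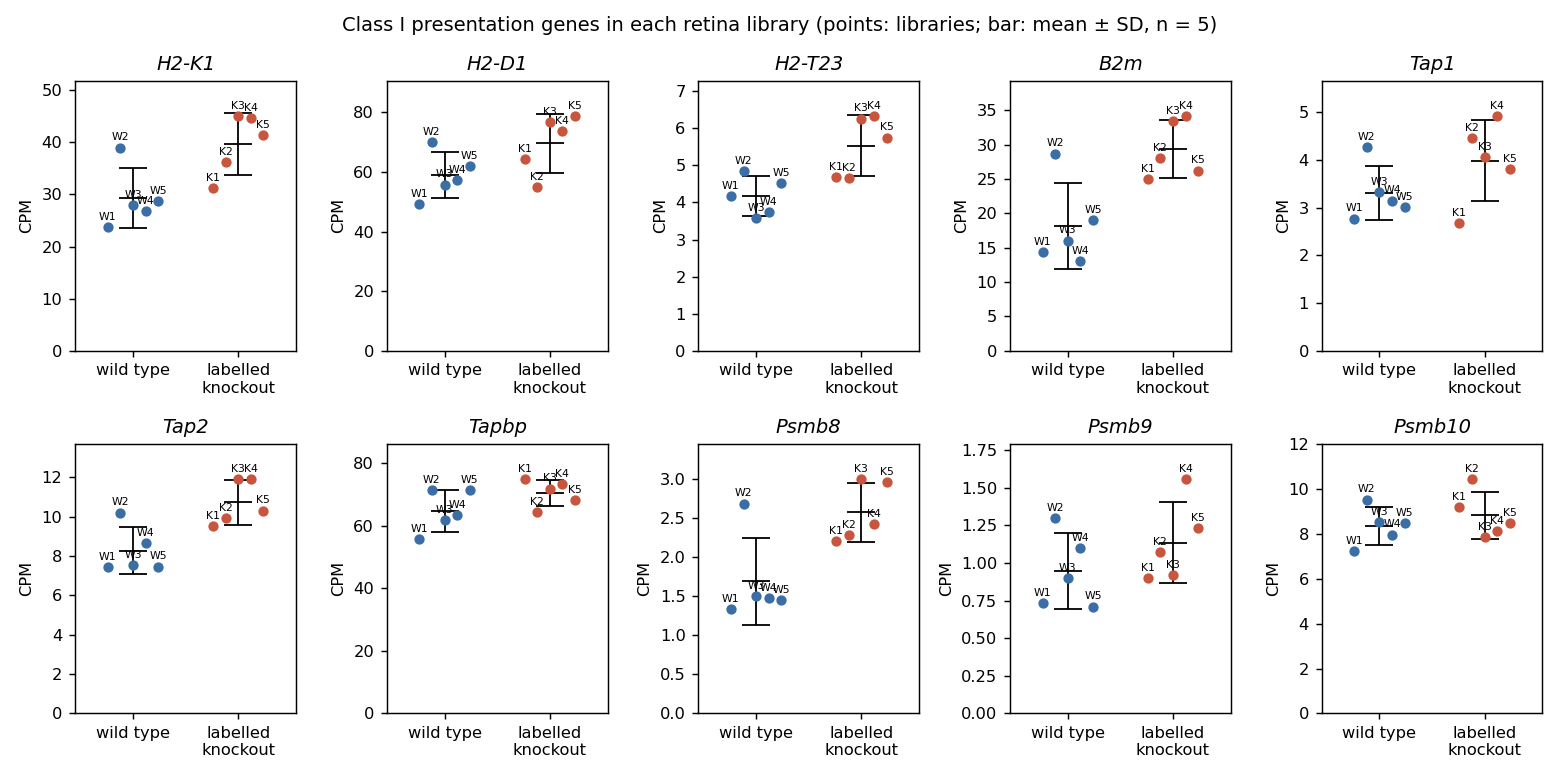
Level of each of the 10 genes in CPM (y axis from 0) in the 5 wild-type libraries and the 5 labelled knockout; points are libraries and bars the mean ± SD. In B2m, W2 at 28.7 CPM lies among the libraries labelled knockout (24.9 to 34.1 CPM) and the other wild-type libraries lie at 13.1 to 19.0 CPM.

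The classical heavy chains H2-K1 and H2-D1 present peptides to CD8 T cells. H2-K1 (ENSMUSG00000061232.15, chromosome 17, 33996017 to 34000333) stood at 23.7, 38.97, 27.9, 26.8 and 28.7 CPM in W1 to W5, and at 31.3, 36.2, 45.0, 44.7 and 41.3 CPM in K1 to K5. K3, K4 and K5 lay above every wild-type library, and K1 and K2 lay below W2 alone. The log2 fold change was 0.44 ± 0.13 (SE, n = 5) at an adjusted p of 0.0970 by edgeR. It became 0.57 with an adjusted p of 0.00690 without W2, and the adjusted p was 0.0434 without K1 and 0.0378 with DESeq2.

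H2-D1 (ENSMUSG00000073411.11, chromosome 17, 35262730 to 35267499) stood at 49.2, 70.1, 55.7, 57.4 and 62.0 CPM in W1 to W5, and at 64.4, 55.01, 76.7, 73.6 and 78.7 CPM in K1 to K5. The groups overlapped, since K2 lay below 4 of the wild-type libraries. The log2 fold change was 0.24 ± 0.11 (SE, n = 5), at an adjusted p of 0.316 by edgeR, and no alternative called it.

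H2-T23 encodes Qa-1, a nonclassical heavy chain that presents leader peptides of other class I chains to receptors of natural killer cells (ENSMUSG00000067212.8, chromosome 17, 36029773 to 36032855). It stood at 4.17, 4.85, 3.57, 3.75 and 4.53 CPM in W1 to W5, and at 4.68, 4.66, 6.26, 6.33 and 5.75 CPM in K1 to K5. As in H2-K1, only W2 kept the groups from separating. The log2 fold change was 0.41 ± 0.15 (SE, n = 5), at an adjusted p of 0.205 by edgeR.

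Heavy chain genes resemble each other, and reads of 1 may be counted for another. Of all 100-base windows of their annotated transcripts, 0.96% in H2-K1, 3.59% in H2-D1 and 3.15% in H2-T23 occurred unchanged in a transcript of another gene, among them H2-Q and other H2 genes. The share was 0.08% in Tapbp and 0 in the other 6 genes. Longer fragments from read pairs would be shared less often, and no source used here gives how the authors counted reads with several matches.

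The transporter genes differed in how well the groups parted. Tap2 (ENSMUSG00000024339.12, chromosome 17, 34203527 to 34216321), 1 of the 2 chains of the pump that moves peptides into the endoplasmic reticulum, stood at 7.45, 10.2, 7.53, 8.66 and 7.46 CPM in W1 to W5, and at 9.53, 9.94, 11.9, 11.9 and 10.3 CPM in K1 to K5. W2 was again the only wild-type library within the range of the libraries labelled knockout. The log2 fold change was 0.38 ± 0.12 (SE, n = 5), at an adjusted p of 0.143 by edgeR, or 0.0373 without W2. Its partner Tap1 (ENSMUSG00000037321.17, chromosome 17, 34187553 to 34197225) stood at 2.77, 4.27, 3.33, 3.15 and 3.02 CPM in W1 to W5, and at 2.67, 4.46, 4.06, 4.92 and 3.82 CPM in K1 to K5. K1 was the lowest of all 10 libraries in Tap1, and the log2 fold change of 0.27 ± 0.18 had an edgeR adjusted p of 0.560.

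Tapbp, the gene of tapasin, which holds the empty heavy chain beside the TAP pump (ENSMUSG00000024308.14, chromosome 17, 33915899 to 33929288), differed little. It stood at 55.6 to 71.5 CPM in wild type (median 63.5, in W4) and at 64.4 to 75.0 CPM in the libraries labelled knockout (median 71.8, in K3). The log2 fold change was 0.12 ± 0.08 (SE, n = 5), at an adjusted p of 0.522 by edgeR.

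None of the 3 immunoproteasome subunits was called, and differences between them were not tested. Psmb8, which encodes the chymotrypsin-like subunit beta-5i (ENSMUSG00000024338.14, chromosome 17, 34197721 to 34201454), stood at 1.34, 2.69, 1.51, 1.47 and 1.45 CPM in W1 to W5, and at 2.21, 2.29, 3.01, 2.43 and 2.96 CPM in K1 to K5. Outside W2 the wild-type values hardly varied, and each lay below every library labelled knockout. The log2 fold change was 0.61 ± 0.21 (SE, n = 5), at an adjusted p of 0.190 by edgeR, and it was 0.84 with an adjusted p of 0.0221 without W2. Counts were low, with 42 to 87 reads of Psmb8 per wild-type library and 81 to 108 per library labelled knockout.

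Psmb9, the gene of subunit beta-1i (ENSMUSG00000096727.2, chromosome 17, 34181988 to 34187764), stood at 0.732, 1.30, 0.899, 1.10 and 0.711 CPM in W1 to W5, and at 0.899, 1.07, 0.919, 1.56 and 1.23 CPM in K1 to K5. The groups overlapped, and the log2 fold change of 0.26 ± 0.24 (SE, n = 5) had an edgeR adjusted p of 0.706. Psmb9 had 23 to 52 reads per library, the lowest counts of the 10 genes. Psmb9 and Tap1 lie head to head on opposite strands and overlap by 212 bases, and without a stated strand setting reads from that overlap cannot be told apart.

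Psmb10, the gene of subunit beta-2i and the only member on chromosome 8 (ENSMUSG00000031897.9, 105935735 to 105938444), had the smallest fold change. It ran from 7.23 to 9.52 CPM in wild type and from 7.85 to 10.4 CPM in the libraries labelled knockout. Its highest value was in K2 and its log2 fold change was 0.08 ± 0.11 (SE, n = 5), and its adjusted p by edgeR was 0.821.

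**Figure D2:**
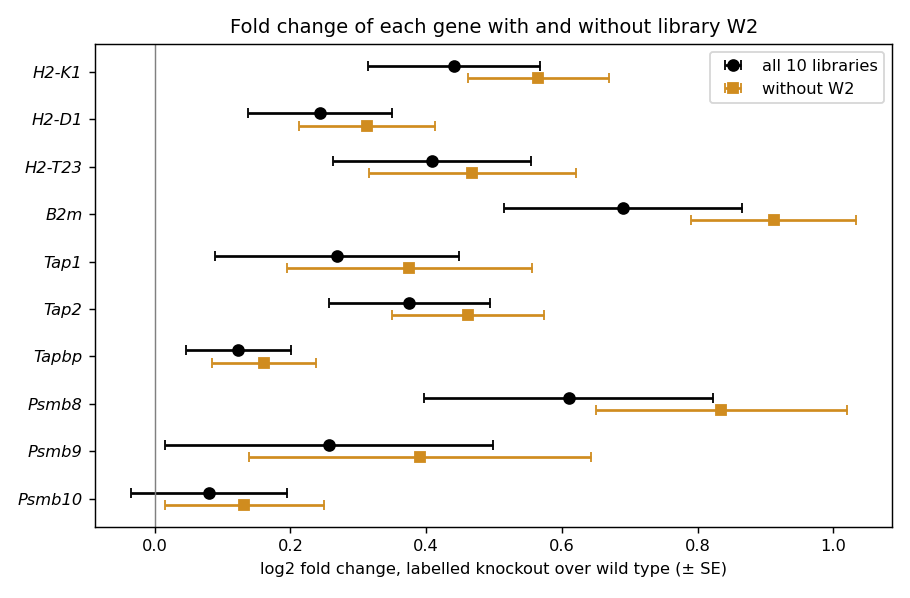
Log2 fold change of each gene, libraries labelled knockout over wild type, with its standard error, in the edgeR fit to all 10 libraries (black) and without W2 (orange). Without W2, B2m stands at 0.91 and Psmb8 at 0.84, and Psmb10 stays lowest at 0.13.

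More of the genes were called when library W2 was left out. It was the highest wild-type library in all 10, as it was in 27.2% of all tested genes. In 0 of the 10 did every library labelled knockout lie above every wild-type library, a pattern found in 1.76% of tested genes. With W2 set aside that held for 5, namely B2m, H2-K1, H2-T23, Tap2 and Psmb8, against 3.39% of tested genes. Without W2 edgeR called 4 higher, B2m, H2-K1, Tap2 and Psmb8, where it called 2.81% of the genes tested and 1.31% as higher. W2 was singled out after the values were seen. Leaving out 1 of the other libraries gave 0 calls except for K1, which gave 1, H2-K1. W1 was the lowest wild-type library in 7 of the 10, so the wild-type group was wide in both directions.

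Per kilobase of annotated coding-transcript exon (RPKM), H2-D1, Tapbp, B2m and H2-K1 stood above the other 6 genes. In wild type, H2-D1 stood at 28.0 ± 3.69, Tapbp at 22.3 ± 2.32, B2m at 21.2 ± 7.27 and H2-K1 at 17.7 ± 3.48 RPKM (SD, n = 5). Neighbours in that order lay less than 2 of the larger SD apart. These spreads are between libraries, and the genes were not compared within each library. Psmb10 followed at 6.36 ± 0.640 RPKM, apart from its neighbours on both sides. H2-T23 (2.84 ± 0.362) and Tap2 (2.40 ± 0.348) overlapped in mean ± SD. Tap1 (1.12 ± 0.194), Psmb8 (1.04 ± 0.345) and Psmb9 (0.701 ± 0.185) were lowest and overlapped. In the libraries labelled knockout B2m and H2-D1 led at 34.1 ± 4.88 and 33.2 ± 4.70 RPKM, and the order of the remaining genes differed only in that Psmb8 (1.58 ± 0.234) stood above Tap1 (1.35 ± 0.287), within their spread.

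Ratios between genes of the same library do not depend on how libraries are scaled. The log2 ratio of H2-D1 to B2m was 1.74 ± 0.302 in W1 to W5 and 1.25 ± 0.239 in K1 to K5 (SD, n = 5), a difference of -0.50. Those of H2-K1 and H2-T23 to B2m differed by -0.29 and -0.33. In 4 of the 5 libraries labelled knockout the H2-K1 ratio lay below every wild-type library, in 3 the H2-D1 ratio did and in 1 the H2-T23 ratio did. W2 had the lowest wild-type value in all 3 ratios. The ratio of Psmb8 to Psmb5, the constitutive subunit that beta-5i replaces, was -4.78 ± 0.422 and -4.62 ± 0.262, a difference of 0.17 that is smaller than the spread. Those of Psmb9 to Psmb6 and of Psmb10 to Psmb7 differed by 0.23 and 0.12, with overlapping groups. With 1 library left out, these 3 differences ran from 0.035 to 0.31, from 0.13 to 0.33 and from 0.060 to 0.17. These ratios are descriptions and were not tested.

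**Figure D3:**
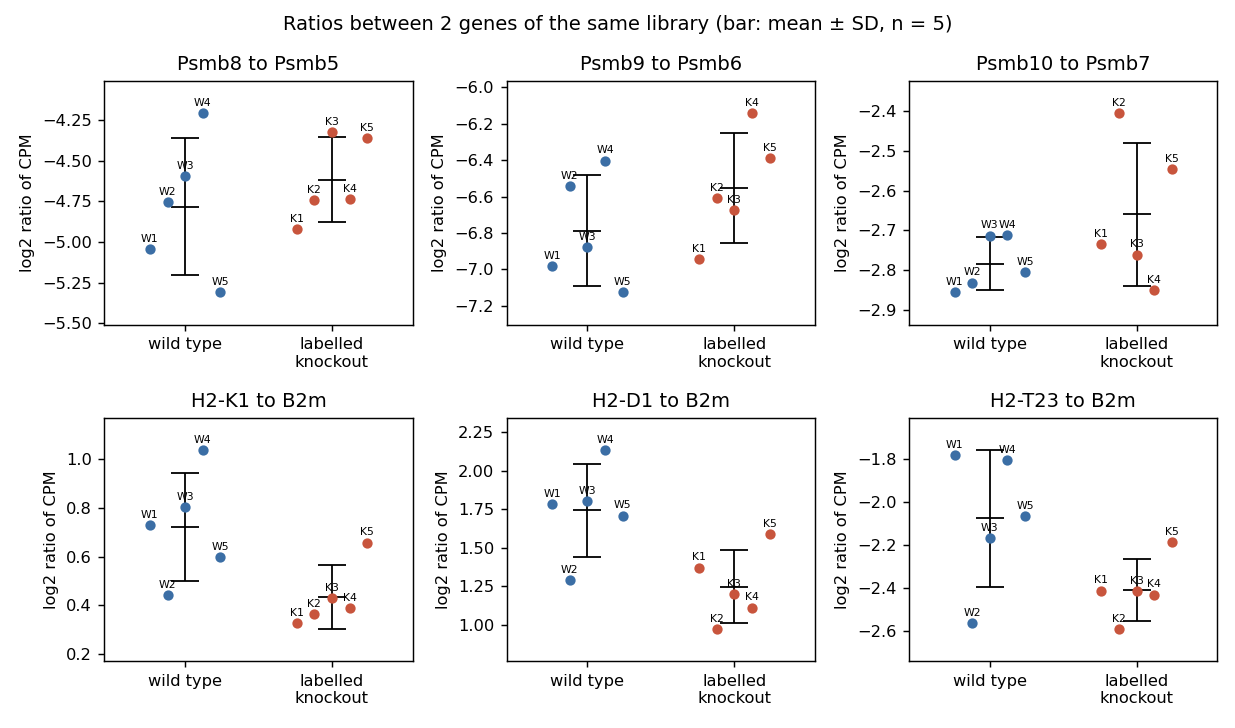
Log2 ratio of CPM between a pair of genes in each library, for immunoproteasome subunits over their constitutive counterparts (upper row) and class I heavy chains over B2m (lower row); bars are mean ± SD. In the lower row W2 lies with the libraries labelled knockout, and the group means differ by -0.29, -0.50 and -0.33.

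Psmb5 itself varied widely in wild type, at 44.1, 72.7, 36.4, 27.2 and 57.6 CPM in W1 to W5, and narrowly in the libraries labelled knockout, at 60.2 to 66.8 CPM. Its log2 fold change was 0.40 ± 0.19 (SE, n = 5), at an adjusted p of 0.357 by edgeR, or 0.0396 without W2. Psmb6 and Psmb7, the constitutive partners of Psmb9 and Psmb10, differed by 0.03 and -0.05 on the log2 scale (adjusted p by edgeR, 0.913 and 0.855). Of the 14 constitutive core subunits 0 were called, 2 had an unadjusted p under 0.05, and the median log2 fold change was 0.015. Of 9 proteasome activator and assembly genes 0 were called by edgeR, none had an unadjusted p under 0.05, and Psme1 and Psme2, the interferon-induced cap of the proteasome, differed by -0.01 and 0.09 on the log2 scale. DESeq2 and limma-voom also called 0 in both lists.

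Peptide loading and trimming genes outside the 10 showed no shift either. Of 12 tested, 0 were called by edgeR, DESeq2 or limma-voom, 0 had an unadjusted p under 0.05, and the median was -0.017. The chaperones Calr, Canx and Pdia3 differed by 0.20, 0.0028 and 0.11 on the log2 scale, and their adjusted p by edgeR was 0.473, 0.994 and 0.689. Tapbpl, a tapasin homologue, stood at 7.30 ± 0.524 and 7.29 ± 0.839 CPM. Erap1, which trims peptides to fit the groove, stood at 24.8 CPM in W2 and at 13.1 to 16.3 CPM in the other wild-type libraries, against 17.6 to 19.2 CPM in the libraries labelled knockout (edgeR adjusted p = 0.813). Lnpep had the lowest log2 fold change of the list, -0.33 (0.418).

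Among 17 tested class I and class I-like heavy chain genes outside the 10, edgeR called 1 higher and 1 lower, where it called 2.03% of all tested genes. Of the 17, 12 had a positive log2 fold change, against 50.4% of all tested genes, and the median was 0.34. An unadjusted p under 0.05 by edgeR was reached by 6, against 13.8%. DESeq2 called 4, against 3.16% of the genes it tested, and limma-voom 2, against 1.8%. H2-T22, a nonclassical heavy chain recognised by gamma-delta T cells (chromosome 17, 36037128 to 36042747), stood at 3.40 to 4.55 CPM in W1 to W5 and at 5.61 to 6.90 CPM in K1 to K5. The groups did not overlap and W2 did not stand apart. H2-T22 rose by 0.55 ± 0.13 on the log2 scale (SE, n = 5), at an adjusted p of 0.0420 by edgeR, and leaving out any single library ended the call, with adjusted p from 0.0536 to 0.115. H2-Bl, a class I gene named for the blastocyst (chromosome 17, 36080115 to 36084223), fell from 0.756 ± 0.369 to 0.0956 ± 0.0543 CPM. H2-Bl ran from 0.474 to 1.39 CPM in W1 to W5 and from 0 to 0.136 CPM in K1 to K5, with a log2 fold change of -2.92 ± 0.47 with an edgeR adjusted p of 0.00305. It was called by each of the 17 alternatives that tested it. H2-Q2 had the highest log2 fold change, 0.90, with an edgeR adjusted p of 0.439. H2-M3, whose promoter stretch is printed above and which presents N-formylated peptides, stood at 0.699 ± 0.159 CPM in wild type and at 1.30 ± 0.410 CPM in K1 to K5, a log2 fold change of 0.89 that edgeR did not call (adjusted p = 0.105). It was chosen for the promoter match, after the values were seen. Sequence shared between H2 genes makes the assignment of reads among them uncertain.

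The 8 genes on chromosome 17 lie within the H2 complex, between 33915899 and 36032855. Of the 96 other tested genes in that stretch that are no class I heavy chains, edgeR called 1 higher and 0 lower, and their median log2 fold change was 0.033. The called gene, named after its values were seen, was Cdsn, which encodes corneodesmosin of the skin (log2 fold change 1.60, edgeR adjusted p = 0.0112).

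Known regulators of class I genes were not called. Of 19 tested, 0 were called by edgeR, DESeq2 or limma-voom, 3 had an unadjusted p under 0.05, and the median log2 fold change was -0.0025. Nlrc5, the transactivator of class I genes, stood at 0.575 ± 0.301 and 0.451 ± 0.312 CPM, with values from 0.136 to 1.05 CPM over both groups (log2 fold change -0.37, edgeR adjusted p = 0.781). Irf1, which carries interferon signals to these promoters, differed by 0.19 on the log2 scale (adjusted p by edgeR, 0.594). The MHC class II list, with the invariant chain and the class II transactivator, had 0 of 9 tested genes called by edgeR, DESeq2 or limma-voom, 0 with an unadjusted p under 0.05 and a median of -0.012.

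Some genes known to be induced by interferon rose. Of 24 tested outside the 10, edgeR called 7 higher and 0 lower, where it called 0.859% of all tested genes as higher. The median log2 fold change was 0.54, and 23 were positive. Xaf1 went the other way, at -0.77 (edgeR adjusted p = 0.202), and was called in 1 of the 18 alternatives. Oasl2 (1.48) and Ifit3 (0.59) were called in all 18 alternatives, whereas Ifit1, Irf7, Rsad2, Gbp4 and Igtp were called in 6 to 14 of them. Their summed level was 92.0 to 125 CPM in wild type and 129 to 163 CPM in K1 to K5. K3, K4 and K5, which led most of the 10 genes, held the highest sums at 161, 163 and 162 CPM. The list was chosen with results of these data known, so it is no independent support.

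Microglia markers moved with the result. Their summed level over 20 markers was 57.4, 96.3, 71.2, 70.4 and 71.4 CPM in W1 to W5, and 82.6 to 87.5 CPM in K1 to K5. Among wild-type libraries W1 was lowest and W2 highest, as in H2-K1 and H2-D1. The summed class II, Müller glia, endothelial and rod markers had W1 lowest and W2 highest as well. Within K1 to K5 the order was not shared. K1 and K2 had the highest microglia sums but the lowest sums of the 10 genes, 225 and 217 CPM, against 247 to 261 CPM in K3 to K5. Of 20 tested rows edgeR called 2 higher, C1qc (log2 fold change 0.77) and Fcrls (2.79), where it called 0.859% of all tested genes as higher. Of the 20, 17 were positive, against 50.4% of all tested genes, and the median was 0.28. An unadjusted p under 0.05 by edgeR was reached by 7, against 13.8%. DESeq2 called 4, against 3.16% of the genes it tested, and limma-voom 2, against 1.8%. Without W2 edgeR called 5, against 2.81%. Leaving out W2 or K1 kept the call of C1qc, and leaving out any of the 8 remaining libraries ended it (edgeR adjusted p up to 0.105). That of Fcrls ended without K3 or K4 (0.0513 and 0.0547). No microglia marker was at 0 in all libraries, and Fcrls was at 0 in W1 and W4. In bulk retina, more microglia and more RNA per cell cannot be told apart, and the part of microglia in the class I values was not tested.

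Markers of other cells that could bring class I RNA gave a mixed picture. Lymphocyte and other leukocyte markers were close to absent, with 1 read of Cd3e, 4 of Cd8b1 and 2 of Nkg7 summed over all 10 libraries, and 16 of the 17 in the table under 1 CPM. Their sums were 7.82 to 11.0 CPM in wild type and 9.56 to 11.7 CPM in K1 to K5, most of it Coro1a at 8.34 CPM in both groups. Endothelial and pericyte markers summed to 570 to 733 and 544 to 649 CPM, with W2 highest. Of these 15 markers 14 had a positive log2 fold change, against 50.4% of all tested genes. Their median was 0.16, and edgeR called 0. Kdr, which made up a large part of the sum, went the other way, from a mean of 231 to 180 CPM. Müller glia markers summed to 6065 to 8326 and 6176 to 7424 CPM, again with W2 highest. Pigment epithelium markers ran from 42.3 to 517 CPM in wild type, with W2 highest, and from 226 to 411 CPM in K1 to K5. Rod markers, which define the retina, stood at 50221 to 66078 and 47774 to 68630 CPM, with W2 the highest wild-type library. The part of these cells in the result was not tested.

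**Figure D4:**
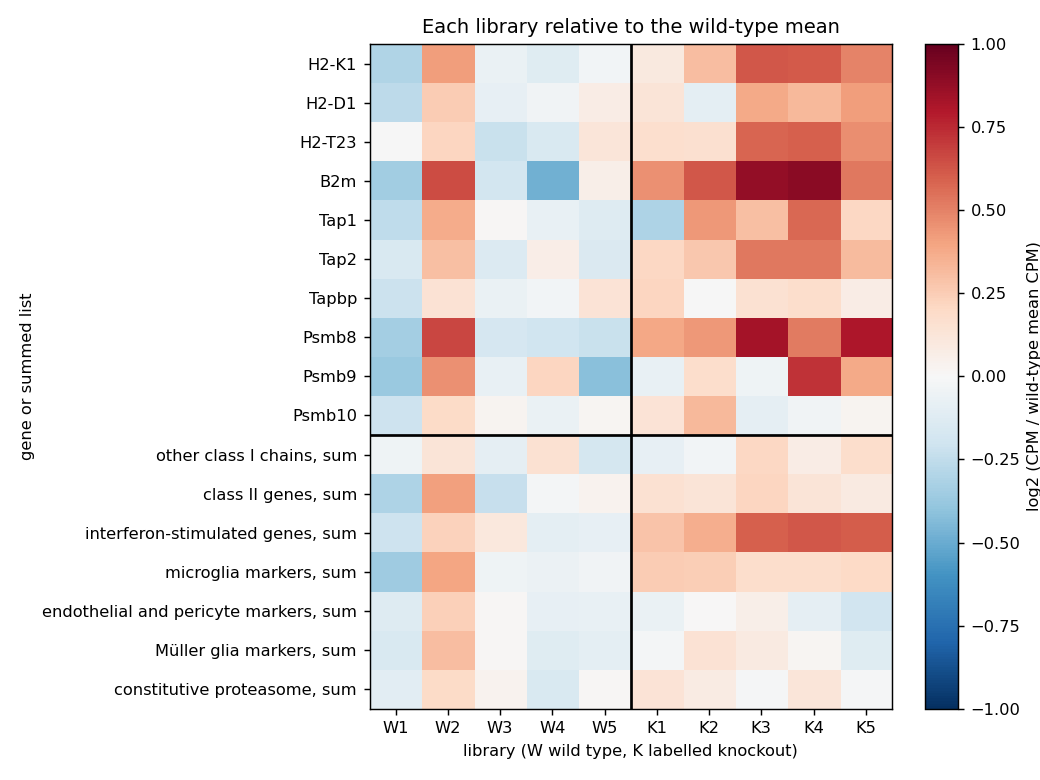
Each library relative to the wild-type mean, as log2 of the CPM ratio (colour, from -1 in blue to 1 in red), for the 10 genes (above the line) and for summed gene lists (below it). W2 is red across all 10 genes and in the microglia row (96.3 CPM), and K3, K4 and K5 are the highest libraries in H2-K1 and in the interferon-stimulated row (161, 163 and 162 CPM).

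Outside the 10, the genes most alike to them in their variation within groups were not class I genes. The 10 themselves were left out of this search. After the group means were taken out, the mean profile of the 10 over 10 libraries was highest in W2 and lowest in W1. Each of the 10 was also compared with the mean of the others, and Pearson's r ran from 0.13 (Psmb10) to 0.96 (H2-K1). Without W1 and W2 it ran from -0.77 (Psmb10) to 0.94 (H2-K1), with 0.018 for Tapbp and 0.25 for Psmb9. Among 15397 genes with at least 1 CPM, the closest were Ctsz, a lysosomal cathepsin (Pearson r = 0.97), the retinol saturase Retsat (0.96), the GTPase gene Rhoc (0.95), the potassium channel subunit Kcnmb4 (0.94), the nucleotide exchange factor Sil1 (0.94) and the phosphatase inhibitor Ppp1r17 (0.94). Spearman's rho was 0.82 to 0.98, and without W1 and W2 Pearson's r was 0.98 for Ctsz and 0.81 to 0.92 for the other 5 genes. All these values describe libraries that share their scaling and carry no test, and the closest genes were picked as the highest of many. Ctsz stood at 48.2 CPM in W2 against 36.2 CPM in W1, and its log2 fold change between groups was 0.17 (edgeR adjusted p = 0.419).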

How the data were processed

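Whole-number read counts per gene for 10 retina libraries were used as the authors deposited them, without normalization. The submitters' processing notes name bcl2fastq, FastQC, STAR 2.5.3a, featureCounts 1.15.2, DESeq2 1.14 and GRCm38.p5; strand and multiple-match settings are not given in the sources used here. The table's log2 fold changes and p-values, per the file headers the authors' comparison of knockout with control, were read beside the fits made here; its mean signal per gene, which the authors averaged over libraries, was not used. Libraries were grouped by genotype label and named in accession order, which pairs none. Total counts of 30433373 to 38857374 per library set the precision.

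Genes passing filterByExpr (minimum count 10, minimum total 15) were tested with edgeR 4.0.16 (TMM, quasi-likelihood, genotype only), with Benjamini-Hochberg adjustment over all 18965 genes. The script was tested on simulated data. SE is the absolute log2 fold change over the square root of F. A set of 18 alternatives used DESeq2 1.42.0, limma-voom 3.58.1, sva 3.50.0, other scalings, filters and left-out libraries. Exon lengths came from GENCODE M21, where 35980 of 36115 identifiers matched. No libraries of a group agreed within sampling noise. The 10 genes, the lists and the motifs were chosen with earlier results of these data known. Named are the 10 genes and, from each other pathway list, called genes, set partners and the extremes of fold change; for the lists of other cell types and of interferon-stimulated genes, counts, sums and selected markers are given.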

Additional observations from a re-analysis of the deposited data

Results flagged for a closer look

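Of the 20 sets of 5 values (10 genes in 2 groups), 1 held a library far from the rest by Dixon's gap test at the 95% level, and chance marks about 1 in 20. It was Psmb8 in W2, at 2.69 CPM against 1.34 to 1.51 CPM in the other wild-type libraries. The gap to the nearest library was 0.875 of the group's range. W2 also held the highest wild-type sum of microglia markers, 96.3 CPM.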

How the results depend on the processing

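All 10 genes kept a positive log2 fold change in each of the 18 alternatives, with 0.0125 for Psmb10 as the lowest. The count of the 10 called was 0 in 12 alternatives. It was 2 under DESeq2, 2 when no genes were filtered for low counts and 2 when 1 surrogate variable was fitted (H2-K1 and B2m each time), 1 under limma-voom, and 0 to 4 when 1 library was left out. Adjusted p over all alternatives ran from 0.000553 to 0.169 for B2m, 0.00690 to 0.286 for H2-K1, 0.0373 to 0.341 for Tap2 and 0.0221 to 0.517 for Psmb8. Over all genes, 385 were called, 763 under DESeq2, 704 when no genes were filtered, 658 when 1 surrogate variable was fitted, and 211 (without K4) to 542 (without W2), with 240 without K5. In the pathway lists outside the 10, 2 were called, 4 with DESeq2, 1 with at least 1 CPM in 5 libraries, 1 without W5 and K5 together and 1 to 3 with 1 library left out. Why these counts moved was not tested. With 1 library left out, the group differences in the within-library log2 ratios kept their sign, and that of Psmb8 to Psmb5 ran from 0.035 (without W5) to 0.31 (without W4). Depth was lowest for Psmb9 (23 to 52 reads per library) and Psmb8 (42 to 108), and its share in the missing calls was not tested. No paired analysis was possible because the labels carry no replicate numbers.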
